A study of Mus musculus with 17 samples.

Results

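The genes described here are 9 nuclear genes for enzymes of the tricarboxylic acid (TCA) cycle, Cs, Idh2, Idh3a, Ogdh, Dlst, Sucla2, Suclg1, Fh1 and Mdh2, among 35971 genes to which the deposited transcripts were matched. They were chosen by the function of their products, with earlier results of these data known. Transcript values were summed to genes in all 17 kidney libraries. Every mouse carried the PRCC-TFE3 fusion gene behind a lox-stop-lox cassette (lsl-PRCC-TFE3 KI), so that the fusion is made only where Cre recombinase acts. KSP-Cre, driven by the Cadherin 16 promoter, acts in kidney tubule epithelium. The 4 Cre(-) mice had no Cre recombinase. Of these, replicates 1 and 2 carried HIF1af/f, and replicates 3 and 4 carried no flox allele. The 13 Cre-positive mice were 3 PRCC-TFE3 KI mice (KI), 4 KI mice with HIF1af/f (Hif1α KO), 3 KI mice with HIF2af/f (Hif2α KO) and 3 KI mice with both HIF1af/f and HIF2af/f (DKO). The labels state neither age nor sex, and nothing says how the mice were littered, so p-values measure the spread between these kidneys. The RNA came from whole kidney, in which fewer cells of a type and less RNA per cell cannot be told apart. Library numbers largely followed the groups, and group cannot be told apart from the order of the libraries.

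The TCA cycle works in the mitochondrial matrix, where it oxidises acetyl groups to carbon dioxide and passes the electrons to the respiratory chain. It also supplies citrate for lipid synthesis and oxaloacetate for glucose synthesis. The proximal tubule, which makes up much of the kidney cortex, is rich in mitochondria and depends on oxidative metabolism. HIF1α, a transcription factor that is stabilised when oxygen is low, is known for inducing glycolytic enzymes and pyruvate dehydrogenase kinase, which slows the entry of pyruvate into the cycle.

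Library totals ranged from 16504419 to 24668827 estimated counts with a median of 18635282. Levels are given as CPM, which divides the counts by library size after TMM scaling (trimmed mean of M values). Differences came from edgeR's quasi-likelihood model, with p-values adjusted by the Benjamini-Hochberg method over the 17011 genes that passed the filter on low counts, and a gene was called at an adjusted p under 0.05. All 9 enzymes passed the filter. The targeted genes were measured over their whole length, which does not show the loss of the floxed exons and so does not check the labels. Hif1a mRNA was 163 to 198 CPM in Hif1α KO kidneys and 184 to 232 CPM in KI kidneys, with adjusted p = 0.372. Epas1 (Hif2α) mRNA was 136 to 149 CPM in Hif2α KO and 173 to 192 CPM in KI kidneys, with adjusted p = 0.0788. Markers of the labelled tissue were present in every Cre(-) library, where 10 proximal tubule markers summed to 16713 to 19072 CPM and 5 thick ascending limb markers to 5550 to 7163 CPM.

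The first comparison asked how kidneys that made the fusion protein differed from Cre(-) kidneys. All 9 TCA cycle enzymes fell in KI kidneys, by a median of 1.07 on the log2 scale, against a median of 0.03 over all genes tested. Over all genes, 29.3% were called lower in this comparison and 31.6% higher. For each of the 9 enzymes every KI library lay below every Cre(-) library, as did 27.7% of all genes tested. The falls were unequal. They were steepest for the 2 succinyl-CoA synthetase genes and fumarate hydratase and shallowest for citrate synthase and malate dehydrogenase. At least a 2-fold fall was measured for 6 of the 9, against 13.1% of all genes.

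Cs (ENSMUSG00000005683.8, chromosome 10, 128337734 to 128362479 in GRCm38, plus strand) encodes citrate synthase, which joins acetyl-CoA and oxaloacetate at the entry of the cycle. It was at 289, 289, 266 and 246 CPM in the 4 Cre(-) libraries and at 178, 184 and 173 CPM in the 3 KI libraries. The groups did not overlap, and the fall was the smallest among the 9 enzymes. The log2 fold change was -0.61 ± 0.07 (SE, adjusted p = 1.7e-06), a 1.53-fold lower level.

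Of the dehydrogenases of the oxidative steps, Idh2 (ENSMUSG00000030541.16, chromosome 7, 80094846 to 80115392, minus strand) encodes the NADP-dependent isocitrate dehydrogenase of mitochondria. It was at 508, 444, 533 and 589.7 CPM in Cre(-) and at 247, 221 and 280.1 CPM in KI libraries. The highest KI value was well under the lowest Cre(-) value, although among Cre(-) mice Idh2 had the largest SD of the 9 enzymes (60.2 CPM). The log2 fold change was -1.06 ± 0.12 (adjusted p = 1.27e-06).

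Idh3a (ENSMUSG00000032279.11, chromosome 9, 54586334 to 54604661, plus strand) encodes the catalytic subunit of the NAD-dependent isocitrate dehydrogenase. It was at 194, 204.5, 182 and 173 CPM in Cre(-) and at 89.2, 95.8 and 83.4 CPM in KI libraries. Its level was about as much reduced as that of Idh2, with a log2 fold change of -1.07 ± 0.10 (adjusted p = 2.37e-07).

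Ogdh and Dlst encode the E1 and E2 components of the 2-oxoglutarate dehydrogenase complex, which makes succinyl-CoA. Ogdh (ENSMUSG00000020456.17, chromosome 11, 6291633 to 6356642, plus strand) was at 775, 764, 854.5 and 761 CPM in Cre(-) and at 419, 403 and 399.8 CPM in KI libraries. Dlst (ENSMUSG00000004789.10, chromosome 12, 85110833 to 85134845, plus strand) was at 514, 466, 494 and 523 CPM in Cre(-) and at 233, 214 and 207 CPM in KI libraries. Both components fell, with log2 fold changes of -0.95 ± 0.08 for Ogdh (adjusted p = 1.58e-07) and -1.19 ± 0.09 for Dlst (adjusted p = 5.37e-08).

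Sucla2 and Suclg1 encode subunits of succinyl-CoA synthetase, the step of the cycle that makes ATP or GTP directly. Suclg1 is the alpha subunit shared by both forms of the enzyme, and Sucla2 the beta subunit of the ADP-forming one. Sucla2 (ENSMUSG00000022110.13, chromosome 14, 73525319 to 73596142, plus strand) was at 233, 226, 228 and 206 CPM in Cre(-) and at 64.8, 70.8 and 65.6 CPM in KI libraries. Suclg1 (ENSMUSG00000052738.14, chromosome 6, 73248382 to 73276911, plus strand) was at 275, 311, 239.7 and 235.5 CPM in Cre(-) and at 73.3, 69.6 and 77.0 CPM in KI libraries. These were the most reduced of the 9 enzymes. The log2 fold change was -1.73 ± 0.11 for Sucla2 (adjusted p = 4.54e-09) and -1.86 ± 0.16 for Suclg1 (adjusted p = 9.92e-08), levels 3.33-fold and 3.62-fold lower.

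Fh1 (ENSMUSG00000026526.14, chromosome 1, 175600374 to 175625635, minus strand) encodes fumarate hydratase, whose inherited loss causes a form of kidney cancer in people. It was at 201, 210.2, 197 and 196 CPM in Cre(-) and at 68.1, 69.8 and 79.2 CPM in KI libraries. The Cre(-) values of Fh1 were the most even of the 9 enzymes (SD 6.5 on a mean of 201 CPM), and all KI values were far below them. Its log2 fold change was -1.48 ± 0.13 (adjusted p = 1.58e-07).

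Mdh2 (ENSMUSG00000019179.10, chromosome 5, 135778480 to 135790398, plus strand) encodes mitochondrial malate dehydrogenase, which closes the cycle by making oxaloacetate. It was at 391, 358, 330.3 and 327 CPM in Cre(-) and at 198, 193 and 204 CPM in KI libraries. After Cs it had the smallest fall, a log2 fold change of -0.83 ± 0.11 (adjusted p = 8.53e-06).

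**Figure D1:**
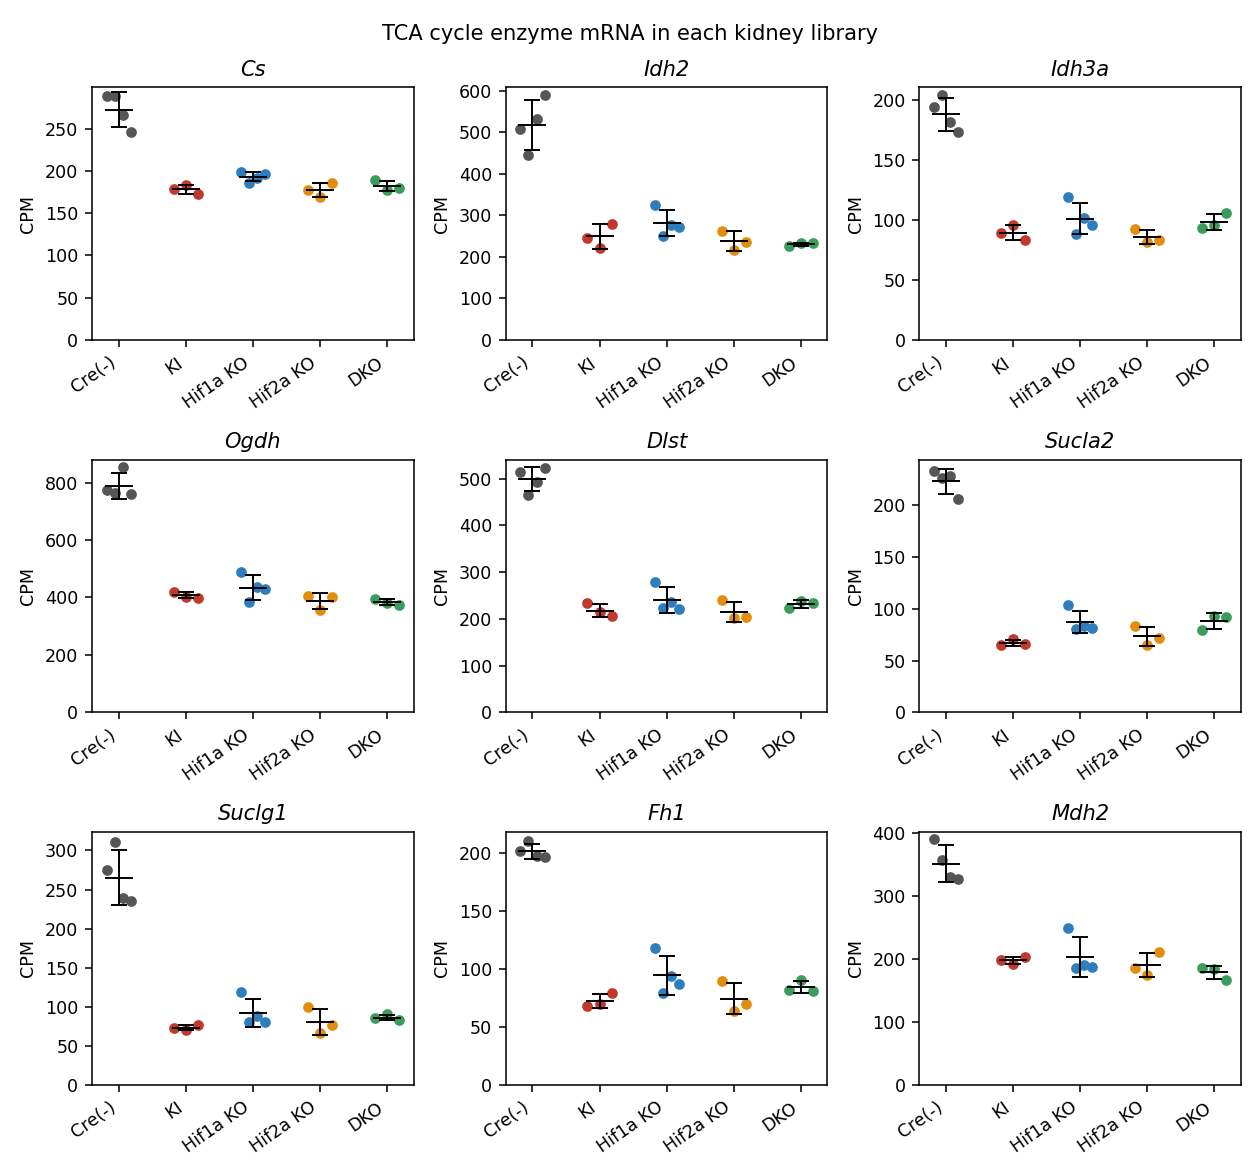
CPM of the 9 TCA cycle enzymes (y axis, from 0) in each library by group (x axis). Each point is 1 kidney and the bars are the group mean ± SD. The 4 Cre(-) libraries lie above all 13 Cre-positive libraries in each of the 9 panels.

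The size of the falls depended on the scaling. TPM, the length-scaled unit that the authors deposited beside the counts, moved the median of all genes to 0.38 on the log2 scale in this comparison, and limma on log2(TPM + 1) called 8843 genes higher and 2458 lower where edgeR called 5381 and 4981. On that scale 8 of the 9 enzymes still fell, and their median was -0.60. Cs was not called, with a log2 fold change of -0.14 (adjusted p = 0.159 by limma). Relative to the median of all genes on the same scale, Cs was at -0.52 with TPM and at -0.64 with counts. Ratios of genes within a library do not depend on how libraries are scaled to each other. The summed CPM of Suclg1, Sucla2 and Fh1 divided by that of Cs and Mdh2 was 1.04 to 1.16 in Cre(-), 0.548 to 0.589 in KI, 0.648 to 0.758 in Hif1α KO, 0.550 to 0.747 in Hif2α KO and 0.655 to 0.755 in DKO libraries. Every Cre-positive library was thus below every Cre(-) library in this ratio, whose genes were picked after their values were seen and which was not tested.

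Markers of several tubule segments and of podocytes also fell. The 10 proximal tubule markers all fell in KI kidneys, with a median log2 fold change of -4.31 and sums of 1396 to 1959 CPM. The 5 thick ascending limb markers also all fell (median -2.88, sums of 851 to 1512 CPM). Of 5 collecting duct principal cell markers 4 fell and 1 rose, and their sums overlapped (374 to 461 CPM in Cre(-), 319 to 390.4 CPM in KI). Of 5 macrophage markers 4 rose, and their sum went from 139 to 168 CPM in Cre(-) to 1405 to 1434 CPM in KI libraries. All 4 injured tubule markers rose, with a median of 4.40. The 3 podocyte markers summed to 518 to 590 CPM in Cre(-) and 102 to 153 CPM in KI libraries. The 4 fibroblast markers went the other way, with sums of 126 to 183 CPM in Cre(-) and 385 to 402 CPM in KI libraries. The part of these shifts in the fall of the TCA cycle enzymes was not tested.

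The fall was seen in each knockout group as well. Against the same 4 Cre(-) libraries, all 9 enzymes were called lower in Hif1α KO (30.1% of all genes), in Hif2α KO (29.9%) and in DKO kidneys (27.9%). The median log2 fold change was -0.90 in Hif1α KO, -1.14 in Hif2α KO and -1.11 in DKO kidneys. The order of the falls was alike in that Suclg1 and Sucla2 were the most and Cs the least reduced in each group. In Hif1α KO kidneys, Suclg1 changed by -1.53 ± 0.14 (adjusted p = 2.31e-07) and Cs by -0.49 ± 0.06 (adjusted p = 6.22e-06). In DKO kidneys, Suclg1 changed by -1.62 ± 0.16 (adjusted p = 5.17e-07) and Cs by -0.58 ± 0.07 (adjusted p = 3.95e-06). In each of these 3 groups all libraries lay below all Cre(-) libraries for all 9 enzymes, as they did for 27.3% of all genes in Hif1α KO, 28.8% in Hif2α KO and 28.5% in DKO kidneys. All comparisons with Cre(-) share the Cre(-) libraries. By edgeR all 9 calls held in each group with any 1 of its libraries or any 1 Cre(-) library left out, and against either pair of Cre(-) mice. By limma on log2(TPM + 1) 8 of 9 enzymes were called lower in each group, and Cs was not (adjusted p = 0.545 in Hif1α KO, 0.345 in Hif2α KO and 0.794 in DKO kidneys).

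**Figure D2:**
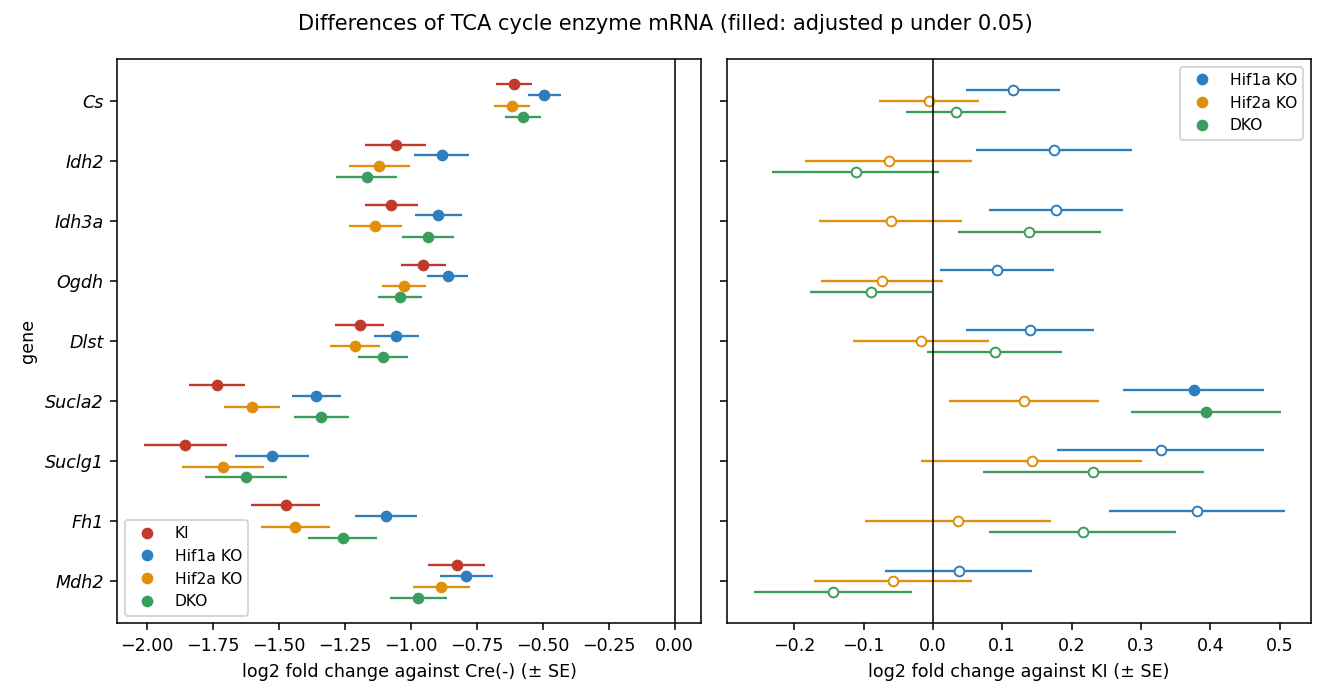
Log2 fold change (x axis, bars ± SE) of each of the 9 enzymes (y axis) against Cre(-) kidneys (left) and against KI kidneys (right), by group; filled points passed an adjusted p under 0.05. All points on the left are filled and between -1.86 and -0.49, and on the right Sucla2 alone is filled, in Hif1α KO and DKO.

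Levels of different genes can be compared per length, in TPM, here with all transcripts of a gene summed. That includes transcripts not annotated as protein-coding. In KI kidneys 1 transcript annotated as subject to nonsense-mediated decay held 50.4% of the Mdh2 TPM, and the main coding transcript of Idh2 held 66.5% of its TPM. The order on coding transcripts alone was not examined and may differ. In Cre(-) kidneys Idh2 (417 ± 80.3 TPM, SD, n = 4) and Mdh2 (391.5 ± 28.1 TPM) stood highest, with overlapping ranges. Dlst (233 ± 3.6), Suclg1 (218 ± 38.7) and Ogdh (217 ± 18.3) formed a middle group in which each overlapped the next, and Fh1 (194 ± 6.6) overlapped Ogdh. Sucla2 (163 ± 10.8) lay below Fh1 without overlap, and Cs (105 ± 11.7) and Idh3a (101 ± 15.0) were lowest and overlapped each other. In KI kidneys the order began with Mdh2 (309.5 ± 18.5 TPM, n = 3) and Idh2 (273 ± 22.2), which did not overlap. Suclg1 went from rank 4 to rank 7 (84.2 ± 1.8 TPM), below Cs (94.9 ± 7.7), and Idh3a was last in every group. The order of the first 2 was the same in all 4 Cre-positive groups, though their ranges overlapped in Hif1α KO and Hif2α KO kidneys.

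The other subunits of the cycle were lower too. All 9 measured, among them Idh3g, Suclg2, Dld and genes of succinate dehydrogenase, fell in KI kidneys, with a median of -1.38. Sdhb, the iron-sulfur subunit of succinate dehydrogenase, fell by 1.78 ± 0.13 (adjusted p = 2.05e-08) and its membrane anchor Sdhd by 0.86 ± 0.11 (adjusted p = 5.49e-06). Suclg2, the GDP-forming beta subunit and partner of Suclg1, fell by 1.68 ± 0.13 (adjusted p = 3.34e-08), close to Sucla2 and Suclg1. So each of the 18 cycle genes on the 2 lists was called lower.

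Steps that lead into the cycle were less uniform. All 4 genes of the pyruvate dehydrogenase complex fell (median -0.83), from -0.48 ± 0.09 for Pdhb to -1.06 ± 0.09 for Pdha1. Of 7 regulators of the complex 5 fell and 2 rose. Pdk4, a kinase that switches the complex off, rose by 1.98 ± 0.31 (adjusted p = 4.71e-05), and the phosphatase subunit Pdp1, which switches it on, rose by 0.58 ± 0.14 (adjusted p = 0.0017). The other phosphatase gene Pdp2 fell by 2.11 ± 0.13 (adjusted p = 5.32e-09), and Pdk1, a known HIF1α target, fell by 0.44 ± 0.17 (adjusted p = 0.039). Of 10 genes that feed or drain the cycle 6 fell and 2 rose. Pck1, which takes oxaloacetate into glucose synthesis, fell by 5.44 ± 0.75 (adjusted p = 1.43e-05), and Pcx, which makes oxaloacetate from pyruvate, fell by 2.59 ± 0.37 (adjusted p = 2.07e-05). Ogdhl, a paralog of Ogdh, rose by 1.70 ± 0.16 on counts (adjusted p = 3.84e-07). In TPM, on which changes differ in size from those on counts, Ogdhl was at 5.65 ± 1.1 in Cre(-) and 25.7 ± 4.7 in KI kidneys. Ogdh itself was at 155 ± 11.3 TPM in KI kidneys.

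Among cytosolic counterparts 5 of 6 fell (median -1.30), with Idh1 at -1.98 ± 0.21 (adjusted p = 1.04e-06). Acly, which splits exported citrate for lipid synthesis, was not called (0.20 ± 0.13, adjusted p = 0.184). Of 7 mitochondrial carriers 6 fell (median -0.95), and the citrate carrier Slc25a1 was not called (-0.28 ± 0.20, adjusted p = 0.248). All 13 nuclear respiratory chain genes fell (median -1.11), as did all 9 measured genes of the mitochondrial genome (median -1.63) and all 14 genes of fatty acid oxidation (median -1.58). The general mitochondrial genes were mixed, 9 of 12 falling and 1 rising with a median of -0.56. Glycolysis genes were split, with 6 of 16 higher, 5 lower and a median of -0.07. Hk2, the hexokinase isoform best known from tumours, rose by 8.03 ± 0.52 (adjusted p = 7.77e-09) from 1.61 CPM to 417 CPM. Of 12 regulators of mitochondrial biogenesis 8 fell and 3 rose. Esrra, a nuclear receptor known for driving TCA cycle genes, fell by 1.16 ± 0.08 (adjusted p = 2.28e-08), and its coactivator Ppargc1a fell by 0.84 ± 0.11 (adjusted p = 1.21e-05).

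**Figure D3:**
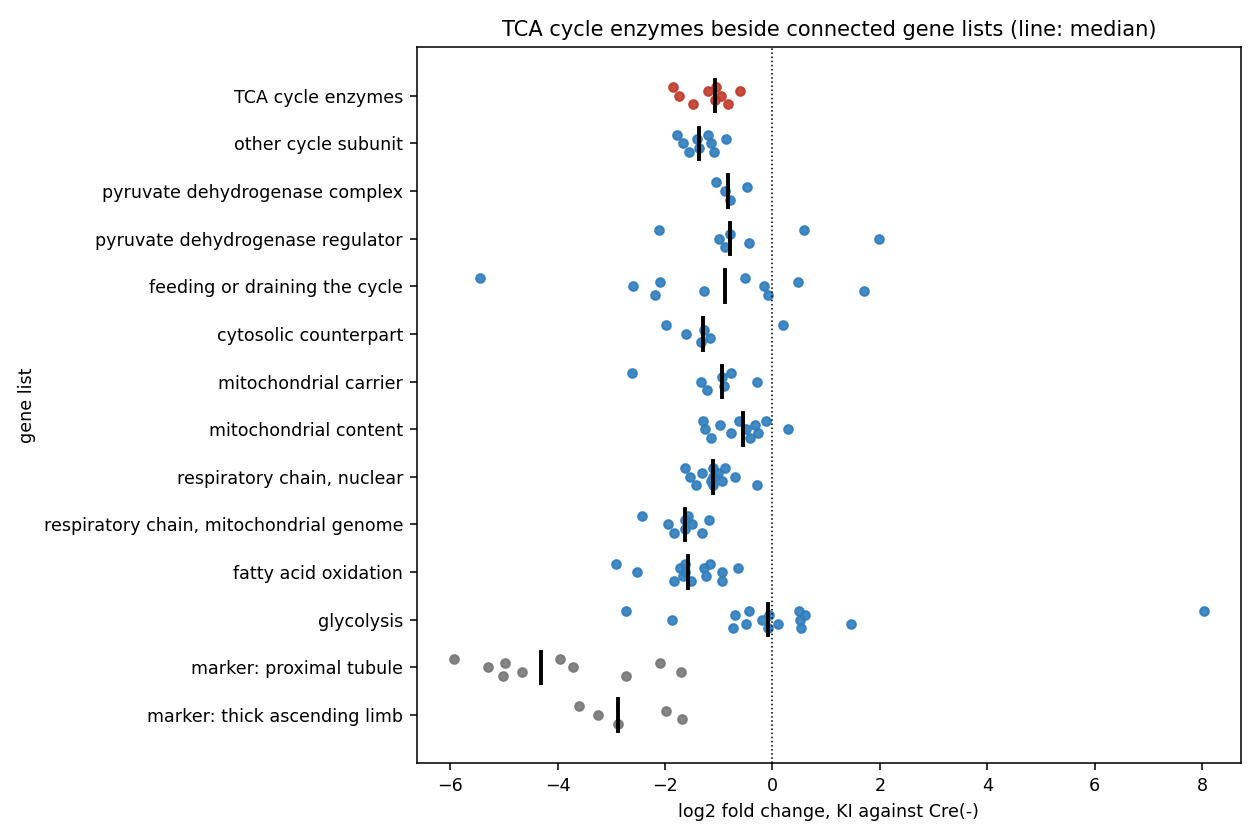
Log2 fold change between KI and Cre(-) kidneys (x axis) of each gene on 14 lists (y axis), with the median of each list as a black line. The 9 TCA cycle enzymes (red) lie between -1.86 and -0.61, beside other mitochondrial lists (blue) and the lower-lying tubule markers (grey), while glycolysis is spread on both sides of 0.

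For 6 pairs of subunits of 1 complex or of enzymes that carry out the same step, the ratio within a library was compared. In TPM, the ratio of Sucla2 to Suclg2 was 0.711 ± 0.10 (SD, n = 4) in Cre(-) and 0.660 ± 0.082 (n = 3) in KI kidneys. The 13 Cre-positive libraries had a log2 ratio 0.08 lower than the 4 Cre(-) libraries (exact two-sided permutation test, p = 0.292, adjusted p = 0.350 over 6 ratios). Idh3a to Idh3g was the ratio with the smallest p, 0.22 higher on the log2 scale in Cre-positive libraries (exact permutation p = 0.0378, adjusted p = 0.187). Dlst to Ogdh was 0.13 lower (exact permutation p = 0.0765, adjusted p = 0.187). None of the 6 ratios passed after adjustment, but Idh3a to Idh3g did without Cre(-) replicate 2 (0.33, exact permutation test, adjusted p = 0.0429). For KI against Cre(-) alone, 3 libraries against 4 cannot give a p below 0.0571, and the 6 adjusted exact p-values were 0.686 to 0.971. Idh2 to Idh3a spread from 2.81 to 5.88 among Cre(-) libraries, wider than in any Cre-positive group. With CPM in place of TPM, Idh3a to Idh3g (0.25, adjusted p = 0.0302) and Dlst to Ogdh (-0.18, adjusted p = 0.0479) passed in the exact permutation test of the 13 against the 4 libraries, so the call on these 2 ratios depended on the unit.

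**Figure D4:**
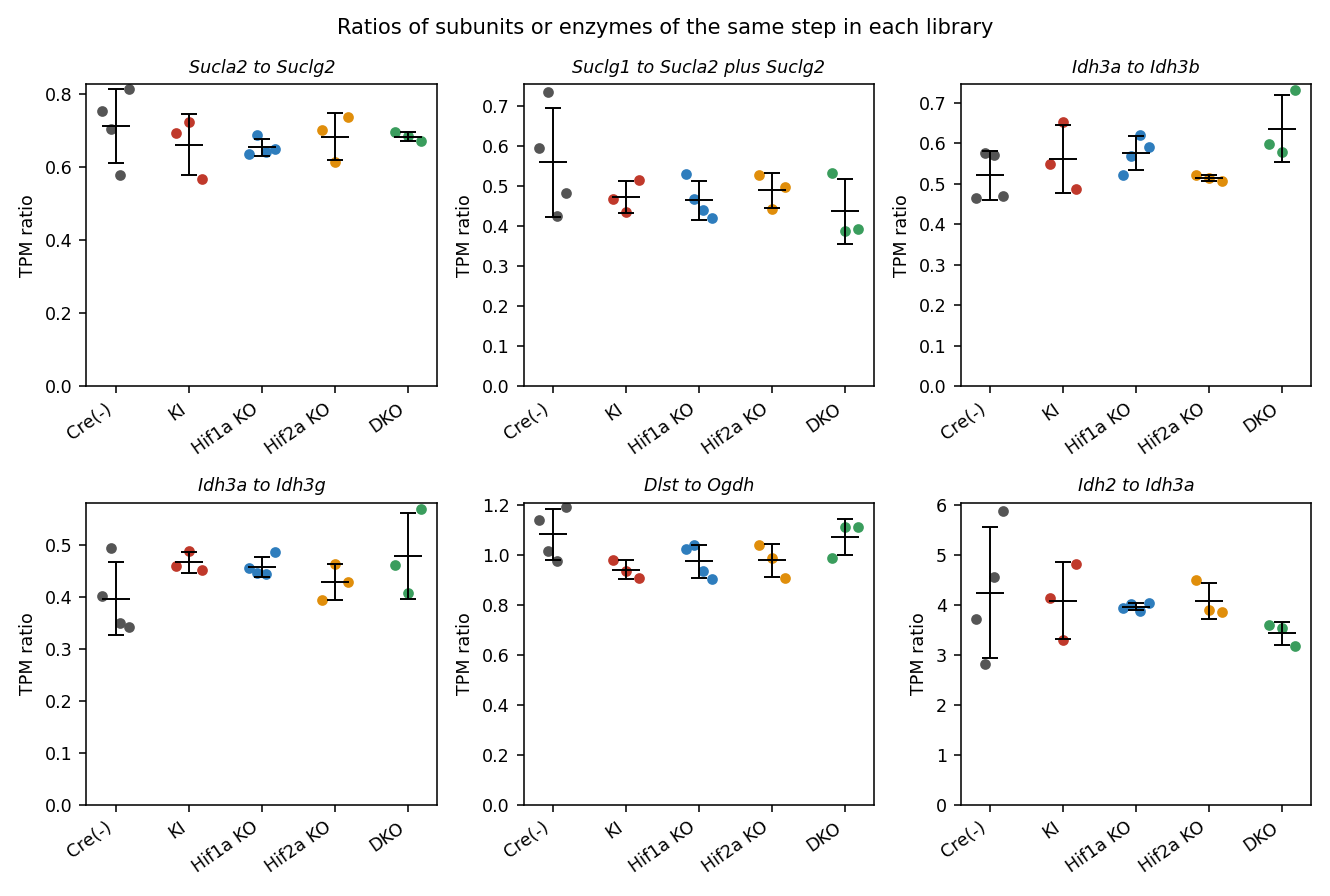
TPM ratios of 6 pairs of subunits or enzymes of the same step (y axis, from 0) in each library by group (x axis), with group mean ± SD as bars. The Cre(-) and KI ranges overlap in each panel, and Idh2 to Idh3a is spread from 2.81 to 5.88 among Cre(-) libraries.

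Several of these genes have transcripts that the annotation does not call protein-coding, and the estimated counts divide reads between them. Protein-coding transcripts held 99.8% of the Cs counts in Cre(-) kidneys and 99.7% in KI kidneys. For Mdh2 they held only 44.2% ± 0.3 in Cre(-) and 45.2% ± 4.2 in KI kidneys, because a transcript annotated as subject to nonsense-mediated decay, ENSMUST00000138101.1, took 55.0% and 53.9%. For Dlst the coding share was 59.1% ± 7.8 in Cre(-) and 54.3% ± 3.1 in KI kidneys. Idh3a was the gene whose coding share differed most between the groups, 60.7% ± 5.1 in Cre(-) and 50.1% ± 3.9 in KI kidneys, with overlapping ranges. Counting protein-coding transcripts alone, a setting chosen after seeing the data, left all 9 calls against Cre(-) in place and moved the median log2 fold change in KI kidneys to -1.30.

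Since the 9 genes fell together, the bases before their start sites were searched for motifs, on both strands, of factors that act on mitochondrial or HIF-controlled genes. RefSeq windows from 250 bases before to 50 after the start (GRCm38.p6) were found for 8 of the 9, and not for Idh3a. A gene can have several windows, and these 8 had 13, of which at least 6 belonged to Ogdh. TCACGTGA and TCATGTGA, the letters read by TFE3 and its relatives, were in none of these 8 genes' windows, against 0.974% and 0.986% of all 32851 windows. TCAAGGTCA, read by oestrogen-related receptors, was in none either (0.423% of all windows). CACGTG (7.15% of windows), ACGTG (19.6%) and GCATGCGC (2.71%) were found for Ogdh alone, in 3, 6 and 2 of the 13 windows, where CACGTG and ACGTG overlap. GCGTG, with ACGTG the core that HIF factors read, was found for Idh2, Ogdh, Suclg1, Fh1 and Mdh2. It was in 8 of the 13 windows of the 8 genes and in 32.4% of all windows. Because Ogdh enters with several windows and no share by gene is given, these values do not compare genes. Suclg1 held 3 GCGTG sites in the 100 bases shown here. The bases of Sucla2, its partner subunit, and of Cs, the least reduced gene, are shown beside them. The RefSeq starts of Suclg1 and Sucla2 lie inside the genes as placed above. The Suclg1 site nearest to its RefSeq start also lies inside the gene as placed above. The stretches run over 100 bases that begin 200 bases before the start on the plus strand, and capitals mark GCGTG read on the opposite strand, at 190, 149 and 108 bases before the Suclg1 start. They are chr6:73248305-73248404, chr14:73552586-73552685 and chr10:128337527-128337626.
Suclg1: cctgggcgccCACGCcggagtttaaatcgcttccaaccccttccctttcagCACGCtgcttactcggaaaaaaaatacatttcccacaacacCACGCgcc
Sucla2: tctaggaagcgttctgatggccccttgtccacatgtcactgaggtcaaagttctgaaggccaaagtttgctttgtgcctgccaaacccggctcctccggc
Cs: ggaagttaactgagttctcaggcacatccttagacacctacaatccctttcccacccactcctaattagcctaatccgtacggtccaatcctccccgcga
No motif searched was found in the windows of Cs, Dlst and Sucla2.

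The next comparisons asked what deleting Hif1α, Hif2α or both did to these enzymes in kidneys with the fusion. Against the 3 KI libraries, which all of these comparisons share, differences were small. In Hif1α KO kidneys 1 of the 9 enzymes was called higher, where 2.57% of all genes were, and none was called lower, where 2.86% of all genes were. All 9 log2 fold changes were above 0, with a median of 0.17 against 0.00 over all genes. The gene called was Sucla2, at 103, 80.6, 83.0 and 81.4 CPM in Hif1α KO against 64.8, 70.8 and 65.6 CPM in KI libraries. The groups did not overlap, and the log2 fold change was 0.38 ± 0.10 (adjusted p = 0.0433), so that Sucla2 stayed far below the 206 to 233 CPM of Cre(-) kidneys.

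Fh1 was at 118, 79.3, 93.3 and 86.7 CPM in Hif1α KO libraries, above the 3 KI values but without passing the test (0.38 ± 0.13, adjusted p = 0.0929). Suclg1 was at 119, 80.9, 87.7 and 81.0 CPM, likewise above all KI values (0.33 ± 0.15, adjusted p = 0.212). The groups did not overlap for 4 of the 9 enzymes, Cs, Sucla2, Suclg1 and Fh1, where 8.96% of all genes had Hif1α KO libraries above all KI libraries. Mdh2 differed least, at 250.0, 185.5, 191 and 187 CPM, with only replicate 1 above the KI values (0.04 ± 0.11, adjusted p = 0.878).

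The call on Sucla2 in Hif1α KO kidneys was not stable. It was lost without Hif1α KO replicate 1 (0.28, adjusted p = 0.106), 3 (adjusted p = 0.0772) or 4 (adjusted p = 0.0523) and without KI replicate 1 (adjusted p = 0.107), 2 (adjusted p = 0.0794) or 3 (adjusted p = 0.113), each by edgeR. It was also lost with limma on log2(TPM + 1) (0.28, adjusted p = 0.146). Without Hif1α KO replicate 2, or with DESeq2, Fh1 was called as well (adjusted p = 0.0421 and 0.0499). DESeq2 called 767 of all 17011 genes higher in this comparison, where edgeR called 438.

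Hif1α KO replicate 1 stood apart among these libraries. It was the highest of its group for all 9 enzymes, on average 0.24 above its group mean on the log2 scale, while replicate 2 was below the mean for all 9. The same library had the highest sum of proximal tubule markers among Cre-positive kidneys, 5076 CPM against 2156, 2629 and 2752 CPM in the other Hif1α KO libraries, and the largest mitochondrial share of counts among Cre-positive kidneys, 12.3%. Without it, the median log2 fold change of the 9 enzymes between Hif1α KO and KI kidneys was 0.10. In Hif1α KO kidneys 5 of 10 proximal tubule markers rose against KI (median 1.26), and the list's sum ranged from 2156 to 5076 CPM against 1396 to 1959 CPM in KI. None of the 10 markers was at 0 in any library. Of 5 thick ascending limb markers 3 rose (median 1.08), with sums of 2134 to 4360 CPM against 851 to 1512 CPM in KI. Macrophage markers summed to 915 to 1051 CPM against 1405 to 1434 CPM in KI, with 1 of 5 called higher and 1 lower. Among the KI libraries replicate 2 stood apart in its 5 adipocyte markers. They summed to 1739 CPM there, against 41.9 CPM in KI replicate 1 and 124 CPM in KI replicate 3. Its 9 enzymes summed to 1521 CPM, against 1571 and 1569 CPM in those libraries. The part of these markers in the difference was not tested.

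In Hif2α KO kidneys no enzyme was called by edgeR, DESeq2 or limma on log2(TPM + 1), and none had an unadjusted p under 0.05 with these tools, where edgeR called 0.741% of all genes higher and 0.647% lower. The log2 fold changes lay between -0.07 and 0.14 with a median of -0.02. Sucla2 was at 83.2, 65.3 and 71.8 CPM, overlapping the KI values (0.13 ± 0.11, adjusted p = 0.538). Suclg1 was at 99.4, 66.7 and 76.5 CPM (0.14 ± 0.16, adjusted p = 0.668) and Fh1 at 89.1, 63.6 and 69.9 CPM (0.04 ± 0.13, adjusted p = 0.916). For these 3 genes replicate 1 was the highest and replicate 2 the lowest, and the proximal tubule markers of the same libraries summed to 3300 and 1264 CPM. The proximal tubule sums overlapped those of KI kidneys (1396 to 1959 CPM). Thick ascending limb markers summed to 1976 to 3656 CPM, against 851 to 1512 CPM in KI. Macrophage markers summed to 1020 to 1189 CPM, against 1405 to 1434 CPM in KI. The part of these markers was not tested.

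In DKO kidneys Sucla2 was again the 1 enzyme called higher, where 6.53% of all genes were, and none was called lower, where 6.19% were. Sucla2 was at 79.6, 92.7 and 92.1 CPM, above all KI libraries (0.39 ± 0.11, adjusted p = 0.0284). Suclg1 (83.0 to 90.2 CPM) and Fh1 (81.6, 90.0 and 80.6 CPM) also lay above all KI libraries but were not called (adjusted p = 0.360 and 0.309). Not overlapping on the high side were thus 3 enzymes, where 16.5% of all genes did not overlap, and on the low side 2, Ogdh and Mdh2 (17.2% of all genes), with log2 fold changes of -0.09 ± 0.09 and -0.14 ± 0.11. The call on Sucla2 was lost without DKO replicate 2 (adjusted p = 0.111) or 3 (adjusted p = 0.0995) and without KI replicate 1 (adjusted p = 0.0654) or 3 (adjusted p = 0.0917). In DKO kidneys 5 of 10 proximal tubule markers rose against KI, with a median of 1.13, and 4 of 5 thick ascending limb markers rose, with a median of 1.28 and sums of 2727 to 4482 CPM. Macrophage markers summed to 706 to 977 CPM, with 1 of 5 called higher and 1 lower. The part of these markers was not tested.

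Pooling the Cre-positive groups by allele gave the same gene, from the same libraries as the comparisons above, so it is not a repeat of them. Between the 7 kidneys with Hif1α deleted and the 6 with Hif1α intact, Sucla2 was the 1 enzyme called (0.32 ± 0.07, adjusted p = 0.0271), where 1.69% of all genes were higher and 2.67% lower. This call was lost without DKO replicate 2 (adjusted p = 0.0790) or 3 (adjusted p = 0.0826), Hif2α KO replicate 2 (adjusted p = 0.0692) or 3 (adjusted p = 0.0666), or KI replicate 1 (adjusted p = 0.0519) or 3 (adjusted p = 0.0515). Fh1 came next (0.28 ± 0.09, adjusted p = 0.0932), and the other 7 had adjusted p-values of 0.133 to 0.891. No enzyme was called between kidneys with Hif2α deleted and intact, where 3.66% of all genes were higher and 3.50% lower. The log2 fold changes were -0.17 to 0.07, none had an unadjusted p under 0.05 by edgeR (4357 of all 17011 genes), and by DESeq2 2 had (4388 of all genes). Between Hif1α KO and Hif2α KO kidneys no enzyme was called either (0.329% of all genes higher, 0.0999% lower), although all 9 values were above 0 with a median of 0.19, and 3 had an unadjusted p under 0.05 by edgeR (2543 of all 17011 genes) and 5 by DESeq2 (2617 of all genes). That median was 0.10 without Hif1α KO replicate 1, 0.30 without Hif2α KO replicate 1, 0.11 without Hif2α KO replicate 2 and 0.10 by limma on log2(TPM + 1).

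The interaction term asked whether the change in DKO kidneys differed from the sum of the changes in the single knockouts. No enzyme was called, and none had an unadjusted p under 0.05 by edgeR, DESeq2 or limma on log2(TPM + 1). Over all genes edgeR called 0.00% in either direction, with 1013 genes at an unadjusted p under 0.05, while DESeq2 called 10 genes higher and 21 lower. The estimates were -0.24 to 0.02 on the log2 scale, with an SE of 0.10 to 0.22, so differences of this size could not be told from 0 with these libraries.

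The other cycle subunits and feeder enzymes gave few calls in the knockouts. Of the 9 other cycle subunits none was called against KI in Hif1α KO, Hif2α KO or DKO kidneys by edgeR or DESeq2, with medians of 0.22, 0.03 and 0.11. At an unadjusted p under 0.05 there were 3 in Hif1α KO by edgeR and 4 by DESeq2, where 3756 and 3799 of all 17011 genes were, 0 in Hif2α KO by both, and in DKO 0 by edgeR and 1 by DESeq2. Pdk4 rose further in Hif1α KO kidneys, by 1.33 ± 0.32 (adjusted p = 0.0266), from 256 ± 101 CPM in KI to 642 ± 128 CPM. In DKO kidneys it was at 145 ± 57.0 CPM and was not called against KI (-0.82 ± 0.33, adjusted p = 0.113). Pck1 rose in Hif1α KO kidneys by 2.84 ± 0.66 (adjusted p = 0.0239). Ogdhl fell by 0.70 ± 0.16 in Hif1α KO (adjusted p = 0.0227) and by 0.94 ± 0.17 in DKO kidneys (adjusted p = 0.00503), while its paralog Ogdh was at 0.09 ± 0.08 and -0.09 ± 0.09 and was not called in either. Of 14 fatty acid oxidation genes, Cpt2 (0.73 ± 0.18, adjusted p = 0.0297) and Acaa2 (0.74 ± 0.20, adjusted p = 0.0433) rose in Hif1α KO kidneys, where DESeq2 called 4 higher. In DKO kidneys edgeR called none of the 14, and 1 had an unadjusted p under 0.05, which DESeq2 called. Glycolysis genes had negative medians, -0.35 in Hif1α KO with 1 of 16 called lower and -0.57 in DKO with 6 called lower, where DESeq2 called 6 and 12 lower. Over all 17011 genes DESeq2 called 767 higher and 862 lower in Hif1α KO, where edgeR called 438 and 487. In DKO kidneys DESeq2 called 1447 higher and 1450 lower, where edgeR called 1111 and 1053. Esrrb, a nuclear receptor of the oestrogen-related family, rose in Hif1α KO (1.96 ± 0.36, adjusted p = 0.00968) and DKO kidneys (1.38 ± 0.38, adjusted p = 0.0275), and Esrra was not called in either (0.07 ± 0.08 and 0.13 ± 0.09).

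**Figure D5:**
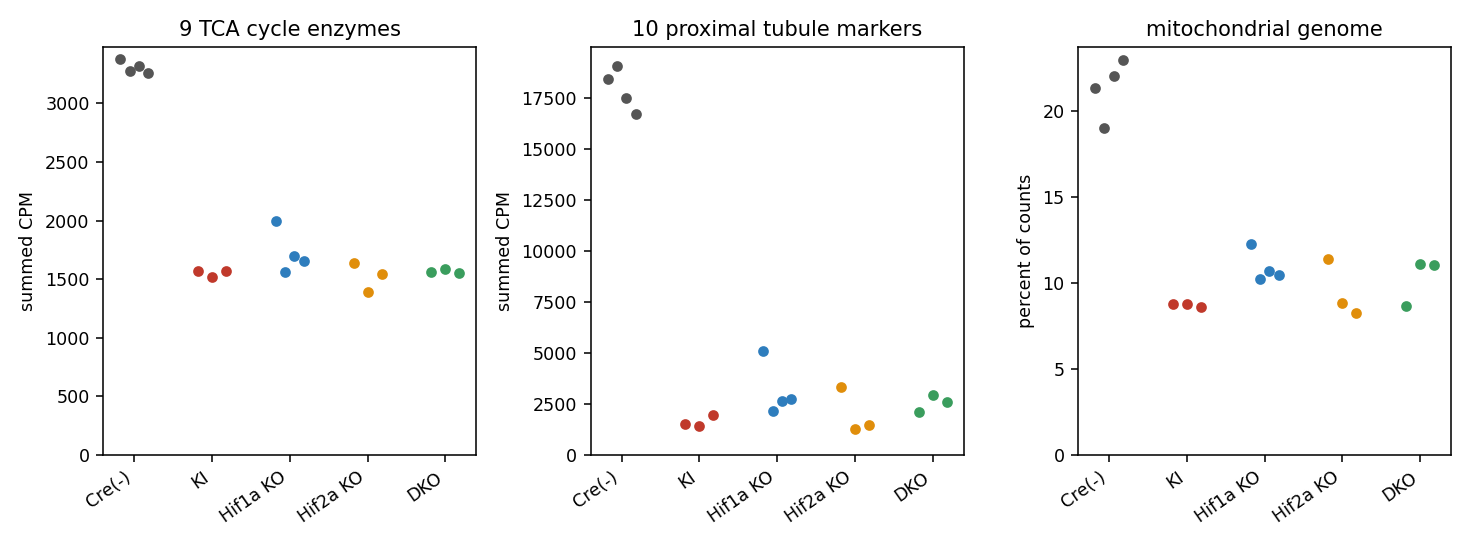
For each library by group (x axis), the summed CPM of the 9 TCA cycle enzymes, the summed CPM of 10 proximal tubule markers, and the percent of counts from the mitochondrial genome (y axes, from 0). Among Cre-positive libraries Hif1α KO replicate 1 is the highest in all 3 panels, at 1999 CPM, 5076 CPM and 12.3%.

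Summed over the 9 enzymes, Cre(-) libraries held 3257 to 3379 CPM, KI 1521 to 1571 CPM, Hif1α KO 1557 to 1999 CPM, Hif2α KO 1394 to 1637 CPM and DKO 1549 to 1585 CPM. Genes of the mitochondrial genome took 19.0% to 22.9% of the counts in Cre(-) libraries and 8.24% to 12.3% in Cre-positive libraries. Within groups the enzymes tended to vary together. After the group means were subtracted, 34 of the 36 pairs had a positive Pearson r over the 17 libraries, with a median of 0.58, the highest for Suclg1 and Fh1 (0.91) and the lowest for Cs and Idh2 (-0.35). The largest mean deviations of the enzymes were 0.24 in Hif1α KO replicate 1 and 0.14 in Hif2α KO replicate 1. In Hif1α KO replicate 2 and Hif2α KO replicate 2 the mean deviation was -0.14. These points share library and depth, and no such share over all genes is given here. The values only describe these 9 enzymes.

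By the rule for likeness, the genes with a mean of at least 10 TPM (9196 candidates besides the 9 enzymes) were ranked by their correlation over the 17 libraries with the mean centred log2 CPM of the enzymes. These 17 points fall into Cre(-) and Cre-positive libraries, and the values are a description. The closest were Immt (Pearson r = 0.997), a scaffold of the mitochondrial inner membrane, the complex I subunit Ndufa9 (0.997), the complex III subunit Uqcrc2 (0.996) and Idh3g (0.995), followed by Sod2, Atp5f1, 4833439L19Rik, Sdhb, Pccb and Apmap down to 0.994. After subtracting group means, the closest were Aldh4a1 (0.951), a mitochondrial enzyme of proline breakdown, Apmap (0.943), Ndufa9 (0.94), Bphl and Thnsl2 (0.934 each), Haao (0.932), Sdhb (0.93), Trap1, Slc7a8 and Pccb (0.921). Apmap, Ndufa9, Sdhb and Pccb were on both lists of 10.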

How the data were processed

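Kidney RNA of 17 mice was sequenced from TruSeq stranded mRNA libraries. The submitters' notes name Trim Galore 0.6.6, cutadapt 2.5 and STAR 2.7.9a and both hg38 and GRCm38, and the methods name RSEM. The files list mouse transcripts, so GRCm38 was used for positions. The authors deposited estimated counts of each transcript, without scaling for depth. TPM values, also deposited by the authors, are scaled for transcript length and library total. Of 119353 transcripts 116770 (97.8%) matched GENCODE M21 and were summed to genes; summed counts were rounded. Reads shared between related transcripts are divided by estimation, which can move values between transcripts of a gene.

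edgeR 4.0.16 (R 4.3.3) was fitted to all libraries with TMM factors, filterByExpr with a minimum count of 10, and a coefficient for each of the 5 groups. In this way 17011 genes were tested, and 18960 with low counts were left out. The fits were also run on simulated data in which few genes changed, which does not test the scaling where many genes differ. Alternatives were DESeq2 1.42.0, its size factors, no filter, a fit of the compared groups alone, a block for the replicate number, limma 3.58.1 on log2(TPM + 1) and log2(TPM + 0.1), no mitochondrial genome genes, either pair of Cre(-) mice and each library left out. Protein-coding transcripts alone were added after seeing the data. log2 CPM values used a prior count of 2.

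The enzymes and gene lists were chosen with earlier results of these data known. Named genes are the 9 enzymes, genes of the fixed lists that passed the threshold or were needed as partners, and the 10 genes of each likeness measure. Ratios used exact permutation tests (scipy). Promoter bases came from RefSeq. The SE of a log2 fold change came from the edgeR fit, which takes in the spread between kidneys. A level of 3 counts corresponded to 0.122 to 0.182 CPM.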

Additional observations from a re-analysis of the deposited data

Results flagged for a closer look

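In the groups of 4 libraries, Dixon's test marked 3 values in 18 tests of an enzyme in a group, of which chance marks about 1 in 20. Ogdh in Cre(-) replicate 3 was at 854.5 CPM, against 761 to 775 CPM in the other Cre(-) libraries. Sucla2 in Hif1α KO replicate 1 was at 103 CPM, against 80.6 to 83.0 CPM, and Mdh2 in the same library was at 250.0 CPM, against 185.5 to 191 CPM.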

How the results depend on the processing

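By edgeR and DESeq2 all 9 enzymes were called lower for KI against Cre(-) under each alternative run, and by limma on TPM 8 were. Of values for single enzymes, 920 of 963 kept direction and call under the other settings and 801 of 846 with 1 library left out. With log2(TPM + 1) and log2(TPM + 0.1) the median difference from Cre(-) was -0.60 and -0.60 in KI, -0.48 and -0.48 in Hif1α KO, -0.60 and -0.61 in Hif2α KO and -0.51 and -0.51 in DKO, and that of DKO from KI 0.17 and 0.17 (0.09 by edgeR). Against only the Cre(-) mice without a flox allele the KI median was -1.17. Counting protein-coding transcripts alone, it was -1.30 in KI, -1.10 in Hif1α KO and -1.28 in Hif2α KO. The number of enzymes called higher in Hif1α KO than in KI was 2 with DESeq2, 0 with no filter, 0 with those groups alone, 0 with either TPM fit, and 0 to 2 with 1 library left out. It was 0 to 1 in DKO with 1 library left out. Between Hif1α deleted and intact it was 2 with DESeq2, 0 with either TPM fit and 0 to 2 with 1 library left out. Over all 17011 genes DESeq2 called 767 higher in Hif1α KO than in KI, where edgeR called 438. Between Hif1α deleted and intact DESeq2 called 678 higher, where edgeR called 288. The cause of these changes was not tested.

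Differences near 0 changed sign. For Hif2α KO against KI, Cs was 0.0090 with no filter, 0.0014 with those groups alone, 0.0097 without mitochondrial genome genes and 0.0001 with coding transcripts; with the 2 TPM fits Cs was 0.0468 and 0.0472, Dlst 0.0275 and 0.0277, and Mdh2 0.0520 and 0.0521; with coding transcripts Idh3a was 0.0453 and Dlst 0.0264. Between Hif2α deleted and intact, the TPM fits gave 0.0380 and 0.0384 for Cs, 0.0266 and 0.0269 for Idh3a and 0.0485 and 0.0488 for Dlst, and coding transcripts 0.0007 for Idh3a. Mdh2 was 0.0580 between Hif1α deleted and intact with coding transcripts. The interaction was 0.0421 and 0.0423 for Dlst with the TPM fits, and -0.0891 for Idh3a and 0.0219 for Mdh2 with coding transcripts. With 1 library left out, Mdh2 ranged from -0.0780 to 0.0738 for Hif1α KO against KI, from -0.0324 to 0.1739 for Hif1α KO against Hif2α KO and from -0.0861 to 0.0148 between Hif1α deleted and intact. For Hif2α KO against KI the ranges were -0.0392 to 0.0267 for Cs, -0.1440 to 0.0285 for Idh2, -0.1032 to 0.0333 for Dlst, -0.0332 to 0.2636 for Suclg1, -0.1158 to 0.1355 for Fh1 and -0.1371 to 0.0029 for Mdh2. Between Hif2α deleted and intact they were -0.0779 to 0.0017 for Idh3a, -0.0769 to 0.0150 for Dlst, -0.0647 to 0.1041 for Suclg1 and -0.1396 to 0.0065 for Fh1, and for the interaction -0.0390 to 0.1028 for Idh3a and -0.0839 to 0.0527 for Dlst.

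On CPM the log2 ratio of Idh2 to Idh3a between KI and Cre(-) was 0.0166, and between Cre-positive and Cre(-) libraries Sucla2 to Suclg2 was 0.0322, Idh3a to Idh3g 0.2542 and Dlst to Ogdh -0.1751. With 1 library left out, the KI ratios ranged from -0.2007 to 0.0027 for Sucla2 to Suclg2, -0.0052 to 0.2060 for Idh3a to Idh3b and -0.1999 to 0.1549 for Idh2 to Idh3a, and over Cre-positive libraries Idh2 to Idh3a from -0.2598 to 0.0950 and Idh3a to Idh3g from 0.1507 to 0.3289.

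Libraries with the same replicate number were no more alike than others, which does not show how the mice were littered or handled. Deviations from group means correlated at -0.22 to 0.25 between the 31 library pairs of the same number and at -0.36 to 0.25 between the other 84, and 3 of 17 libraries correlated best with their own number. With the replicate block, 0 enzymes were called in Hif1α KO against KI (Sucla2 0.41, adjusted p = 0.0613 by edgeR), Suclg1 was -0.0053 between Hif2α deleted and intact, the interaction for Idh3a was -0.0042, and Idh2 to Idh3a between KI and Cre(-) was 0.1549. At 3 or 4 kidneys a group, the SE of 0.07 to 0.16 limits what could be called against KI.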
